A study of Mus musculus with 6 samples.

Results

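The interferon response genes of mouse skeletal muscle are described here as a set of 38 named genes, in which 29 are known mainly as type I interferon genes, 7 are GTPases induced by interferon gamma, and Irf1 and Irf8 are transcription factors of the gamma branch. A gene was read through the probe sets whose only gene symbol in the platform annotation was its own. In this way 34 of the 38 were measured, by 48 of the 22626 probe sets tested, and they make up 34 of the 12393 genes that have such a probe set. Of the other 4, Isg15 and Tgtp1 appear only on probe sets that carry several symbols, and Ddx58 and Ifi44 were matched to no probe set. The expression of these 4 was therefore not analysed here. The measured genes comprised 26 type I genes, 6 GTPases and both factors.

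Muscle of wild-type C57BL/6 mice had been injected with an adeno-associated virus (AAV) vector that carries the murine Tfeb cDNA (TFEB overexpression, 3 mice) or with an AAV vector that carries green fluorescent protein (GFP control, 3 mice). The labels give an age of 1 month, while the paper calls its mice adult. All 6 muscles had thus received a virus, and neither an uninjected nor a saline-injected muscle was part of the comparison. Per the study's text the vectors were injected into the muscle with the cytomegalovirus promoter, which is not restricted to muscle fibres, and the comparison asks what the transcriptome of TFEB-injected muscle looks like beside that of GFP-injected muscle. TFEB is a transcription factor best known as an activator of the genes of lysosomes and autophagy. Each mouse gave 1 Affymetrix array, whose values are on a log2 scale, so that a difference of 1 is a 2-fold difference.

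Interferons are cytokines released by cells that sense viral nucleic acids or by activated lymphocytes. Type I interferons (alpha and beta) act on nearly all cells through the receptor chains Ifnar1 and Ifnar2 and the kinases Jak1 and Tyk2, which lead to a complex with Stat2 and Irf9 on interferon-stimulated response elements. Interferon gamma, made by T cells and natural killer cells, acts through Ifngr1 and Ifngr2 and the kinases Jak1 and Jak2, and is known as the main inducer of the guanylate-binding proteins and of the immunity-related GTPases, which attack vacuoles of intracellular pathogens in the mouse.

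GFP control replicate 2 stood apart from the other control arrays in these very genes. Of the 34 genes, 30 were over 2-fold higher in it than in the mean of GFP control replicates 1 and 3, where 3.81% of all genes were, and 0 were over 2-fold lower, where 0.250% of all genes were. At 4-fold the count was 20 of 34 (1.31% of all genes) and at 8-fold it was 11 of 34 (0.452% of all genes). GFP control replicates 1 and 3, in contrast, differed over 2-fold from each other at 1 member, Ifi47 (0.500% of all genes). The fold changes of the members are therefore given with all 6 arrays and without GFP control replicate 2. That array was singled out by its values in the same genes, so the results without it describe the other 5 arrays and are no independent evidence. In bulk muscle, fewer cells of a type and less RNA per cell cannot be told apart. The 7 defining markers of skeletal muscle were near the top of the scale in every array, with a mean log2 value between 14.01 and 14.05 in the TFEB arrays and between 14.06 and 14.09 in the GFP arrays. Tfeb itself was read by 1 probe set at 7.92, 7.68 and 7.61 in the TFEB arrays, against 8.49, 8.47 and 8.58 in the GFP arrays, which is a difference of -0.77 ± 0.097 on the log2 scale (SE, n = 3 arrays per group, limma adjusted p = 0.00244). That direction goes against the label. The paper states that the time between injection and sampling was enough for efficient expression of TFEB. The position of its probes in the transcript is not known here and the delivered cDNA may lack it, so this value checks nothing about the vector, and the group is named for what was delivered.

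The stretches of genome around the members' transcription starts hold the letters that interferon-activated factors are known to bind more often than promoters at large. Promoters of 300 bases, most of them before the start, came from RefSeq annotation on GRCm38.p6, in which 30 of the 38 members had 35 promoters. Searched were GAAA and GAAA with any 2 bases between them on both strands (the core of the interferon-stimulated response element, called the ISRE core here), TTCNNNGAA (the core of the gamma-activated site, its own reverse complement) and CACGTG (the E-box core bound by TFEB, its own reverse complement). The ISRE core was found for 16 of 30 members (53.3%), against 3.99% of the 27025 genes with a promoter in that table. By class, 11 of 22 type I genes (50%) and 5 of 6 GTPases (83.3%) held it. In these promoter counts the type I genes include Isg15, Ddx58 and Ifi44 and the GTPases include Tgtp1, none of which was measured. Iigp1, a measured GTPase, had no promoter in that table. TTCNNNGAA was found for 11 of 30 members (36.7%), against 9.55% of all genes. CACGTG was found for 1 of 30 members (3.33%), Trim25, against 8.09% of all genes. A match is a description of letters and not a binding site, and the absence of a match says only that these letters are not in the window. The 7 promoters printed next, 5′ to 3′ on the strand of the gene with the matches in capitals, are those of genes whose values the following paragraphs turn on: type I genes with the ISRE core (Ifit1 at chr19:34640639-34640938 on the plus strand, Ifit3 at chr19:34583279-34583578 on the plus strand and Rsad2 at chr12:26456403-26456702 on the minus strand), the member with CACGTG (Trim25 at chr11:88999153-88999452 on the plus strand), and GTPases (Gbp3 at chr3:142559794-142560093 on the plus strand, Igtp at chr11:58199306-58199605 on the plus strand and Irgm1 at chr11:48871371-48871670 on the minus strand). Matches that overlap run together in capitals.
Ifit1: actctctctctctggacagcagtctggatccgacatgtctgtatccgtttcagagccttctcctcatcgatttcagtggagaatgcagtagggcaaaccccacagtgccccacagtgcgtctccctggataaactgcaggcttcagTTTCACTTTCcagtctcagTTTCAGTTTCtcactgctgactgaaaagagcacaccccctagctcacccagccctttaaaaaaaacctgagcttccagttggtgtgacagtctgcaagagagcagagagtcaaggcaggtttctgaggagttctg
Ifit3: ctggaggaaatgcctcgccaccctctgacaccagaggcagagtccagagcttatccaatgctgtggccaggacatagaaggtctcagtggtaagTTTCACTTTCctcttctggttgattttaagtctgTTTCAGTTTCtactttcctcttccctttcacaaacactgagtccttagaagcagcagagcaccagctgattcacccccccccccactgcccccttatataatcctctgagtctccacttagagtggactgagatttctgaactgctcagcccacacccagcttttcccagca
Rsad2: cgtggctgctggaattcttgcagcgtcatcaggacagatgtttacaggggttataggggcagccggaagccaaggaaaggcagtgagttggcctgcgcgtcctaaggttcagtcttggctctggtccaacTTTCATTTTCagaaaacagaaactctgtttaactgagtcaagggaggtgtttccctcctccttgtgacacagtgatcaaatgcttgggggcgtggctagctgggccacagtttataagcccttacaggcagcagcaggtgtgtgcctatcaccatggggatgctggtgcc
Trim25: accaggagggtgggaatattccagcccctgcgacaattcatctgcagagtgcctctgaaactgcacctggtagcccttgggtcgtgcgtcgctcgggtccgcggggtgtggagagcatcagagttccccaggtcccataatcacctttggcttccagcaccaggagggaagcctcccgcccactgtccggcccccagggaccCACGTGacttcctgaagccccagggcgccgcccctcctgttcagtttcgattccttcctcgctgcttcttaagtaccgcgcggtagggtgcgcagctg
Gbp3: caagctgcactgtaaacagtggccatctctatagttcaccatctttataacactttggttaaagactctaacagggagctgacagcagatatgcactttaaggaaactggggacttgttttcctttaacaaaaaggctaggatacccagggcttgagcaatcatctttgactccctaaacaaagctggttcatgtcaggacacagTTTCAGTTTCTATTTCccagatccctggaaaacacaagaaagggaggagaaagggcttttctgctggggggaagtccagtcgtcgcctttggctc
Igtp: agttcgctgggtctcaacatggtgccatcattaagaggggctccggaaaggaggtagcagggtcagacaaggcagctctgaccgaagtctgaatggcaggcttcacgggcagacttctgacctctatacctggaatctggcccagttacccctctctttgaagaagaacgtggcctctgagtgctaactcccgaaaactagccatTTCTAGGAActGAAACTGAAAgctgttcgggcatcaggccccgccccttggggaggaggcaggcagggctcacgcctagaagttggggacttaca
Irgm1: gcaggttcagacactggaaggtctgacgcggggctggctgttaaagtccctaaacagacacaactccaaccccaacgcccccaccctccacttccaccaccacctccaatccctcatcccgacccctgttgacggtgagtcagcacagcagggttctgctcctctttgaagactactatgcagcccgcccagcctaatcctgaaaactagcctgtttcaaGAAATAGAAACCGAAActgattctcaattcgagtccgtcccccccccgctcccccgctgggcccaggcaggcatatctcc
In Ifit1 and Ifit3 the ISRE core stands on the other strand, as TTTC and TTTC with 2 bases between, at 2 places each. In Gbp3 and Irgm1 2 matches overlap, and in Igtp a TTCNNNGAA match is followed closely by an ISRE core.

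With all 6 arrays, 3 of the 34 interferon response genes rose in TFEB muscle, all of them type I genes, and 0 fell. To pass, a gene had to differ at least 1.5-fold with an adjusted p under 0.05, and 8.62% of all genes passed it as higher and 4.90% as lower. The members that passed were Trim25, Oas2 and Lgals3bp. The other 23 type I genes, all 6 GTPases, Irf1 and Irf8 did not pass, and 6 of the 34 had an unadjusted p under 0.05, where 45.9% of all genes did. The median log2 fold change was 0.80 over the type I genes and -0.42 over the GTPases, beside -0.05 over all genes. Without GFP control replicate 2, 29 of the 34 genes were higher in TFEB muscle and 0 lower, where 12.3% of all genes were higher and 6.36% lower. These 29 were 22 of 26 type I genes, 5 of 6 GTPases, Irf1 and Irf8, and the medians were then 1.44 over the type I genes and 1.14 over the GTPases, beside -0.05 over all genes. The 3 TFEB arrays lay wholly above the 3 GFP arrays at 3 of the 34 genes, Trim25, Oas2 and Mx2, where 22.9% of all genes did, and wholly above GFP control replicates 1 and 3 at 33 of the 34, all but Ifitm1, where 30.0% of all genes did.

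**Figure D1:**
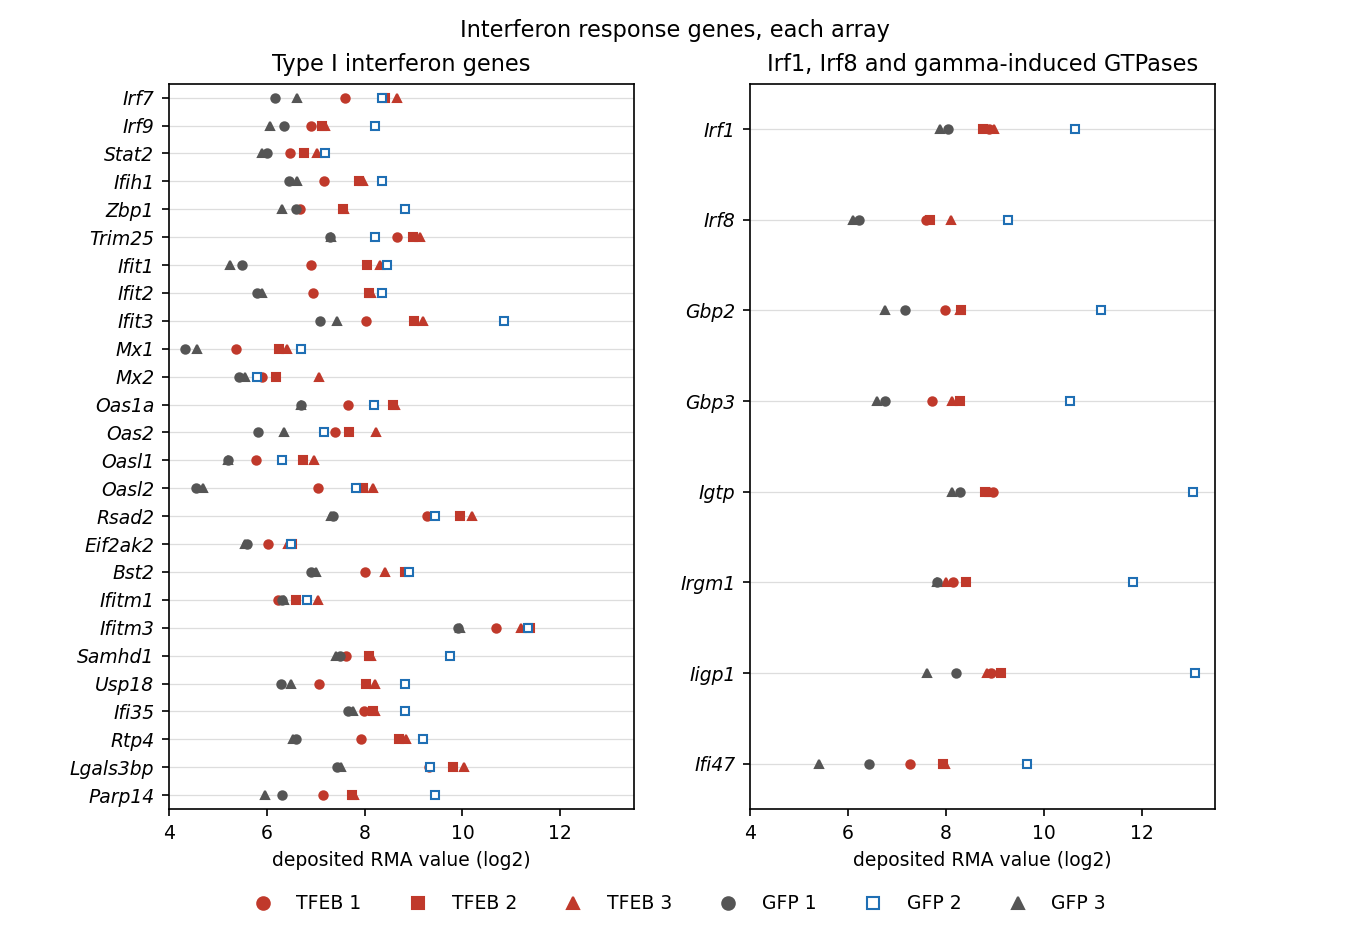
Deposited log2 value of each interferon response gene on each array, with 1 row per gene, TFEB arrays in red, GFP control replicates 1 and 3 in grey and GFP control replicate 2 as an open blue square. The blue squares lie far to the right for the 6 GTPases, whereas at most type I genes they lie near the red points.

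The transcription factors of the type I branch did not pass with all arrays and were higher in TFEB muscle without GFP control replicate 2. Irf7, which drives the transcription of type I interferon genes themselves, had log2 values of 7.61, 8.42 and 8.65 in the TFEB arrays, against 6.17, 8.36 and 6.61 in the GFP arrays. GFP control replicate 2 lay within the TFEB range and the other control arrays lay below it, and the log2 fold change was 1.18 with all 6 arrays (adjusted p = 0.157) and 1.84 without GFP control replicate 2 (adjusted p = 0.0034). Irf9, the DNA-binding part of the type I complex, read 6.91, 7.13 and 7.20 in the TFEB arrays, against 6.35, 8.21 and 6.07 in the GFP arrays, so that GFP control replicate 2 exceeded all other arrays. Its partner Stat2 showed 6.48, 6.75 and 7.03 in the TFEB arrays, against 6.00, 7.20 and 5.91 in the GFP arrays, again with GFP control replicate 2 highest. For Irf9 the log2 fold change was 0.21 with all 6 arrays (adjusted p = 0.782) and 0.88 without GFP control replicate 2 (adjusted p = 0.00212), and for Stat2 it was 0.39 with all 6 arrays (adjusted p = 0.423) and 0.80 without GFP control replicate 2 (adjusted p = 0.00727).

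Irf1 and Irf8, the factors of the gamma branch, were both highest in GFP control replicate 2. Irf1, an early target of interferon gamma, had 8.88, 8.77 and 8.99 in the TFEB arrays, against 8.04, 10.64 and 7.88 in the GFP arrays. Irf8, a factor of macrophage and dendritic cell development that interferon gamma also induces, had 7.60, 7.67 and 8.10 in the TFEB arrays, against 6.23, 9.27 and 6.10 in the GFP arrays. The TFEB arrays lay between the control arrays, above replicates 1 and 3 and below replicate 2. The log2 fold change of Irf1 was 0.02 ± 0.69 (SE, limma adjusted p = 0.983) with all arrays and 0.92 ± 0.10 (adjusted p = 0.000794) without GFP control replicate 2, and its sign with all arrays turned to -0.05 when the arrays were shifted to equal medians. For Irf8 the corresponding values were 0.59 ± 0.81 (adjusted p = 0.601) and 1.63 ± 0.16 (adjusted p = 0.000476).

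Among the nucleic acid sensors and their partners, Trim25 was the member with the smallest adjusted p of all 34. Trim25, a ubiquitin ligase that acts on the RNA sensor RIG-I, had log2 values of 8.67, 8.99 and 9.12 in the TFEB arrays, against 7.30, 8.22 and 7.31 in the GFP arrays. All TFEB arrays exceeded all GFP arrays, and GFP control replicate 2 was the highest control. The rise was 2.49-fold (log2 fold change 1.32 ± 0.26 SE, n = 3 arrays per group, limma adjusted p = 0.0112) with all arrays, 3.08-fold without GFP control replicate 2 (adjusted p = 0.000345), and Trim25 kept passing whichever single array was left out. Trim25 is also the member whose promoter, printed above, holds CACGTG, letters found for 8.09% of all genes with a promoter. Binding of TFEB there was not tested. Ifih1, the sensor of long double-stranded RNA known as MDA5, read 7.17, 7.88 and 7.97 in the TFEB arrays, against 6.45, 8.36 and 6.61 in the GFP arrays. Zbp1, a sensor of Z-form nucleic acids that can start necroptosis, read 6.69, 7.57 and 7.59 in the TFEB arrays, against 6.59, 8.83 and 6.32 in the GFP arrays. In both genes GFP control replicate 2 was the highest array, and TFEB replicate 1 of Zbp1 was close to the low controls. The log2 fold change of Ifih1 was 0.53 with all 6 arrays (adjusted p = 0.456) and 1.14 without GFP control replicate 2 (adjusted p = 0.00845), and that of Zbp1 was 0.03 with all 6 arrays (adjusted p = 0.975) and 0.82 without GFP control replicate 2 (adjusted p = 0.0478), with a sign for Zbp1 that turned under 2 of the 3 other scalings when all arrays were used.

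The IFIT genes, whose proteins bind viral RNA and hold back its translation, did not pass with all arrays and all passed without GFP control replicate 2. Ifit1, which recognises RNA caps that lack methylation, had 6.90, 8.05 and 8.33 in the TFEB arrays, against 5.49, 8.47 and 5.25 in the GFP arrays. Ifit2 had 6.94, 8.08 and 8.13 in the TFEB arrays, against 5.79, 8.35 and 5.90 in the GFP arrays. Ifit3, which stabilises Ifit1, had 8.04, 9.01 and 9.20 in the TFEB arrays, against 7.08, 10.84 and 7.43 in the GFP arrays. In all of them GFP control replicate 2 was the highest array and TFEB replicate 1 the lowest TFEB array, and the TFEB arrays lay between the control arrays. With all arrays the log2 fold changes were 1.35 ± 0.87 for Ifit1 (SE, limma adjusted p = 0.267), 1.04 ± 0.71 for Ifit2 (adjusted p = 0.296) and 0.30 ± 0.97 for Ifit3 (adjusted p = 0.832). Without GFP control replicate 2 they were 2.39 ± 0.38 (adjusted p = 0.00318), 1.87 ± 0.34 (adjusted p = 0.00522) and 1.49 ± 0.33 (adjusted p = 0.011).

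The oligoadenylate synthetase family, whose members make the second messenger that activates RNase L, held 1 of the 3 members that rose with all arrays. Oas2 had 7.40, 7.68 and 8.23 in the TFEB arrays, against 5.83, 7.18 and 6.35 in the GFP arrays. The TFEB arrays lay above all control arrays, the lowest of them by a small margin over GFP control replicate 2, and the gene rose 2.49-fold with all arrays (log2 fold change 1.32 ± 0.36 SE, limma adjusted p = 0.0327) and 3.21-fold without GFP control replicate 2 (adjusted p = 0.00259). The call of Oas2 was lost on leaving out any single array other than GFP control replicate 2 and TFEB replicate 1, with adjusted p between 0.076 and 0.107. Oas1a had 7.66, 8.58 and 8.61 in the TFEB arrays, against 6.69, 8.19 and 6.71 in the GFP arrays. Oasl1, which lacks synthetase activity and restrains translation of Irf7 in the mouse, had 5.78, 6.74 and 6.98 in the TFEB arrays, against 5.20, 6.31 and 5.21 in the GFP arrays. Oasl2 had 7.05, 7.97 and 8.16 in the TFEB arrays, against 4.55, 7.82 and 4.70 in the GFP arrays. In Oas1a, Oasl1 and Oasl2 TFEB replicates 2 and 3 exceeded every control array and TFEB replicate 1 lay below GFP control replicate 2. Oasl2 had the largest log2 fold change of the 34 members, 2.04 ± 0.87 with all arrays (limma adjusted p = 0.115, not passing) and 3.10 ± 0.30 without GFP control replicate 2 (8.59-fold, adjusted p = 0.000516). Oas1a changed by 1.09 with all 6 arrays (adjusted p = 0.11) and 1.59 without GFP control replicate 2 (adjusted p = 0.00439), and Oasl1 by 0.93 with all 6 arrays (adjusted p = 0.123) and 1.30 without GFP control replicate 2 (adjusted p = 0.017).

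Rsad2, which encodes viperin, an enzyme whose product terminates viral RNA chains, came close to passing with all arrays. It had 9.27, 9.94 and 10.20 in the TFEB arrays, against 7.35, 9.43 and 7.32 in the GFP arrays, with TFEB replicate 1 just under GFP control replicate 2 and the other TFEB arrays above all controls. The log2 fold change was 1.77 ± 0.58 (SE, limma adjusted p = 0.0573) with all arrays and 2.47 ± 0.25 (adjusted p = 0.000549) without GFP control replicate 2, and of the 3 other scalings of all arrays it passed with equal medians (adjusted p = 0.0494) but not after a second quantile normalization (0.0599) or a shift to the muscle markers (0.0587). The Mx genes encode dynamin-like GTPases that trap viral nucleoproteins, and most inbred mouse strains carry a disrupted Mx1. Mx1 had 5.38, 6.25 and 6.42 in the TFEB arrays, against 4.34, 6.69 and 4.59 in the GFP arrays. Mx2 had 5.90, 6.19 and 7.07 in the TFEB arrays, against 5.43, 5.81 and 5.55 in the GFP arrays. Mx1 followed the pattern of the IFIT genes, whereas Mx2 was the type I gene that moved least in GFP control replicate 2, which exceeded the mean of the other controls by 0.32, and its TFEB arrays all lay above all controls. Mx1 changed by 0.81 with all 6 arrays (adjusted p = 0.354) and 1.56 without GFP control replicate 2 (adjusted p = 0.00599), and Mx2 by 0.79 with all 6 arrays (adjusted p = 0.079) and 0.90 without GFP control replicate 2 (adjusted p = 0.0558), so that Mx2 did not pass in either comparison.

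None of the effectors at membranes, in translation and in nucleotide supply passed with all arrays, and Bst2, Ifitm3 and Eif2ak2 passed without GFP control replicate 2. Bst2, or tetherin, which holds budding virions at the cell surface, had 8.02, 8.82 and 8.42 in the TFEB arrays, against 6.92, 8.90 and 7.00 in the GFP arrays. Ifitm3, which blocks fusion of viruses in endosomes, had 10.69, 11.38 and 11.20 in the TFEB arrays, against 9.90, 11.35 and 9.95 in the GFP arrays. Ifitm1, its relative at the cell surface, had 6.24, 6.59 and 7.05 in the TFEB arrays, against 6.31, 6.82 and 6.36 in the GFP arrays. GFP control replicate 2 was as high as the upper TFEB arrays for Bst2 and Ifitm3, and for Ifitm1 the groups overlapped also without that array, since TFEB replicate 1 was the lowest of all 6. The log2 fold change of Bst2 was 0.81 with all 6 arrays (adjusted p = 0.278) and 1.46 without GFP control replicate 2 (adjusted p = 0.00215). That of Ifitm3 was 0.69 with all 6 arrays (adjusted p = 0.228) and 1.16 without GFP control replicate 2 (adjusted p = 0.00354), and that of Ifitm1 was 0.13 with all 6 arrays (adjusted p = 0.69) and 0.29 without GFP control replicate 2 (adjusted p = 0.314). Eif2ak2, the kinase PKR that stops translation by phosphorylating an initiation factor, had 6.03, 6.52 and 6.44 in the TFEB arrays, against 5.59, 6.50 and 5.56 in the GFP arrays, with GFP control replicate 2 inside the TFEB range. It changed by 0.45 with all 6 arrays (adjusted p = 0.246) and 0.76 without GFP control replicate 2 (adjusted p = 0.00743). Samhd1, which hydrolyses deoxynucleotides, had 7.63, 8.10 and 8.14 in the TFEB arrays, against 7.50, 9.74 and 7.43 in the GFP arrays, with GFP control replicate 2 well above every other array. Its log2 fold change was -0.27 with all arrays (adjusted p = 0.754), the only negative value among the type I genes in the scaling as deposited, and 0.49 without GFP control replicate 2 (adjusted p = 0.0467), under the fold limit.

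Of the remaining type I genes, Lgals3bp passed with all arrays by a narrow margin. Lgals3bp, a secreted glycoprotein that binds galectins, had 9.31, 9.81 and 10.04 in the TFEB arrays, against 7.43, 9.34 and 7.51 in the GFP arrays. TFEB replicate 1 lay just under GFP control replicate 2 and the other TFEB arrays above it. The rise was 3.09-fold with all arrays (log2 fold change 1.63 ± 0.51 SE, limma adjusted p = 0.0499) and 4.76-fold without GFP control replicate 2 (adjusted p = 0.000386), and the call was lost on leaving out any other single array, with adjusted p between 0.0771 and 0.149. With all arrays it was also lost after a second quantile normalization (adjusted p = 0.0509), after a shift of the arrays to the muscle markers (0.0506), when probe sets were averaged per gene (0.052) and in a fit with an intensity trend (0.112). Usp18, which removes ISG15 from proteins and dampens signalling at Ifnar2, had 7.08, 8.03 and 8.21 in the TFEB arrays, against 6.29, 8.82 and 6.49 in the GFP arrays. Rtp4, a chaperone of membrane receptors, had 7.93, 8.71 and 8.84 in the TFEB arrays, against 6.60, 9.19 and 6.54 in the GFP arrays. Parp14, an ADP-ribosyltransferase, had 7.14, 7.74 and 7.79 in the TFEB arrays, against 6.32, 9.43 and 5.97 in the GFP arrays. GFP control replicate 2 was the highest array in each of these, by the widest margin for Parp14. Usp18 changed by 0.57 with all 6 arrays (adjusted p = 0.549) and 1.38 without GFP control replicate 2 (adjusted p = 0.0125), Rtp4 by 1.05 with all 6 arrays (adjusted p = 0.289) and 1.92 without GFP control replicate 2 (adjusted p = 0.00147), and Parp14 by 0.31 with all 6 arrays (adjusted p = 0.799) and 1.41 without GFP control replicate 2 (adjusted p = 0.00236). Ifi35, which forms complexes with Nmi, had 7.99, 8.18 and 8.22 in the TFEB arrays, against 7.66, 8.82 and 7.76 in the GFP arrays, and its log2 fold change was 0.05 with all arrays (adjusted p = 0.911) and 0.42 without GFP control replicate 2 (adjusted p = 0.0155), the second of which was under the fold limit.

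The GTPases showed the widest spread among the control arrays of all members and none of them passed with all arrays. The guanylate-binding protein gene Gbp2 had 7.99, 8.32 and 8.29 in the TFEB arrays, against 7.17, 11.17 and 6.76 in the GFP arrays. Gbp3 had 7.71, 8.29 and 8.13 in the TFEB arrays, against 6.75, 10.54 and 6.60 in the GFP arrays. In both genes the TFEB arrays sat close together, above the other controls and well below GFP control replicate 2. The log2 fold change of Gbp2 was -0.17 ± 1.09 (SE, limma adjusted p = 0.917) with all arrays and 1.23 ± 0.15 (adjusted p = 0.00119) without GFP control replicate 2, and for Gbp3 the values were 0.08 ± 1.00 (adjusted p = 0.957) and 1.37 ± 0.17 (adjusted p = 0.00118).

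Among the immunity-related GTPases, Igtp had 8.96, 8.81 and 8.90 in the TFEB arrays, against 8.29, 13.04 and 8.12 in the GFP arrays. Irgm1, a regulator that keeps the effector GTPases inactive on the cell's own membranes, had 8.15, 8.40 and 8.0 in the TFEB arrays, against 7.83, 11.82 and 7.83 in the GFP arrays. Iigp1, an effector that coats the vacuole of Toxoplasma, had 8.92, 9.13 and 8.84 in the TFEB arrays, against 8.21, 13.09 and 7.62 in the GFP arrays. GFP control replicate 2 exceeded the mean of the other controls 28.5-fold at Igtp, 15.9-fold at Irgm1 and 36.1-fold at Iigp1, while the TFEB arrays stayed close to each other at each of them. Ifi47 had 7.26, 7.94 and 7.99 in the TFEB arrays, against 6.43, 9.66 and 5.42 in the GFP arrays, and it was the member at which GFP control replicates 1 and 3 differed most from each other, by 1.01. With all arrays the log2 fold changes were -0.93 ± 1.24 for Igtp (SE, limma adjusted p = 0.592), -0.98 ± 1.03 for Irgm1 (adjusted p = 0.494), -0.68 ± 1.34 for Iigp1 (adjusted p = 0.722) and 0.56 ± 1.00 for Ifi47 (adjusted p = 0.693). Without GFP control replicate 2 they were 0.68 ± 0.09 (adjusted p = 0.00179), 0.36 ± 0.13 (adjusted p = 0.0621), 1.05 ± 0.18 (adjusted p = 0.0041) and 1.81 ± 0.33 (adjusted p = 0.00522) in the same order of genes, so that Irgm1 alone did not pass.

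**Figure D2:**
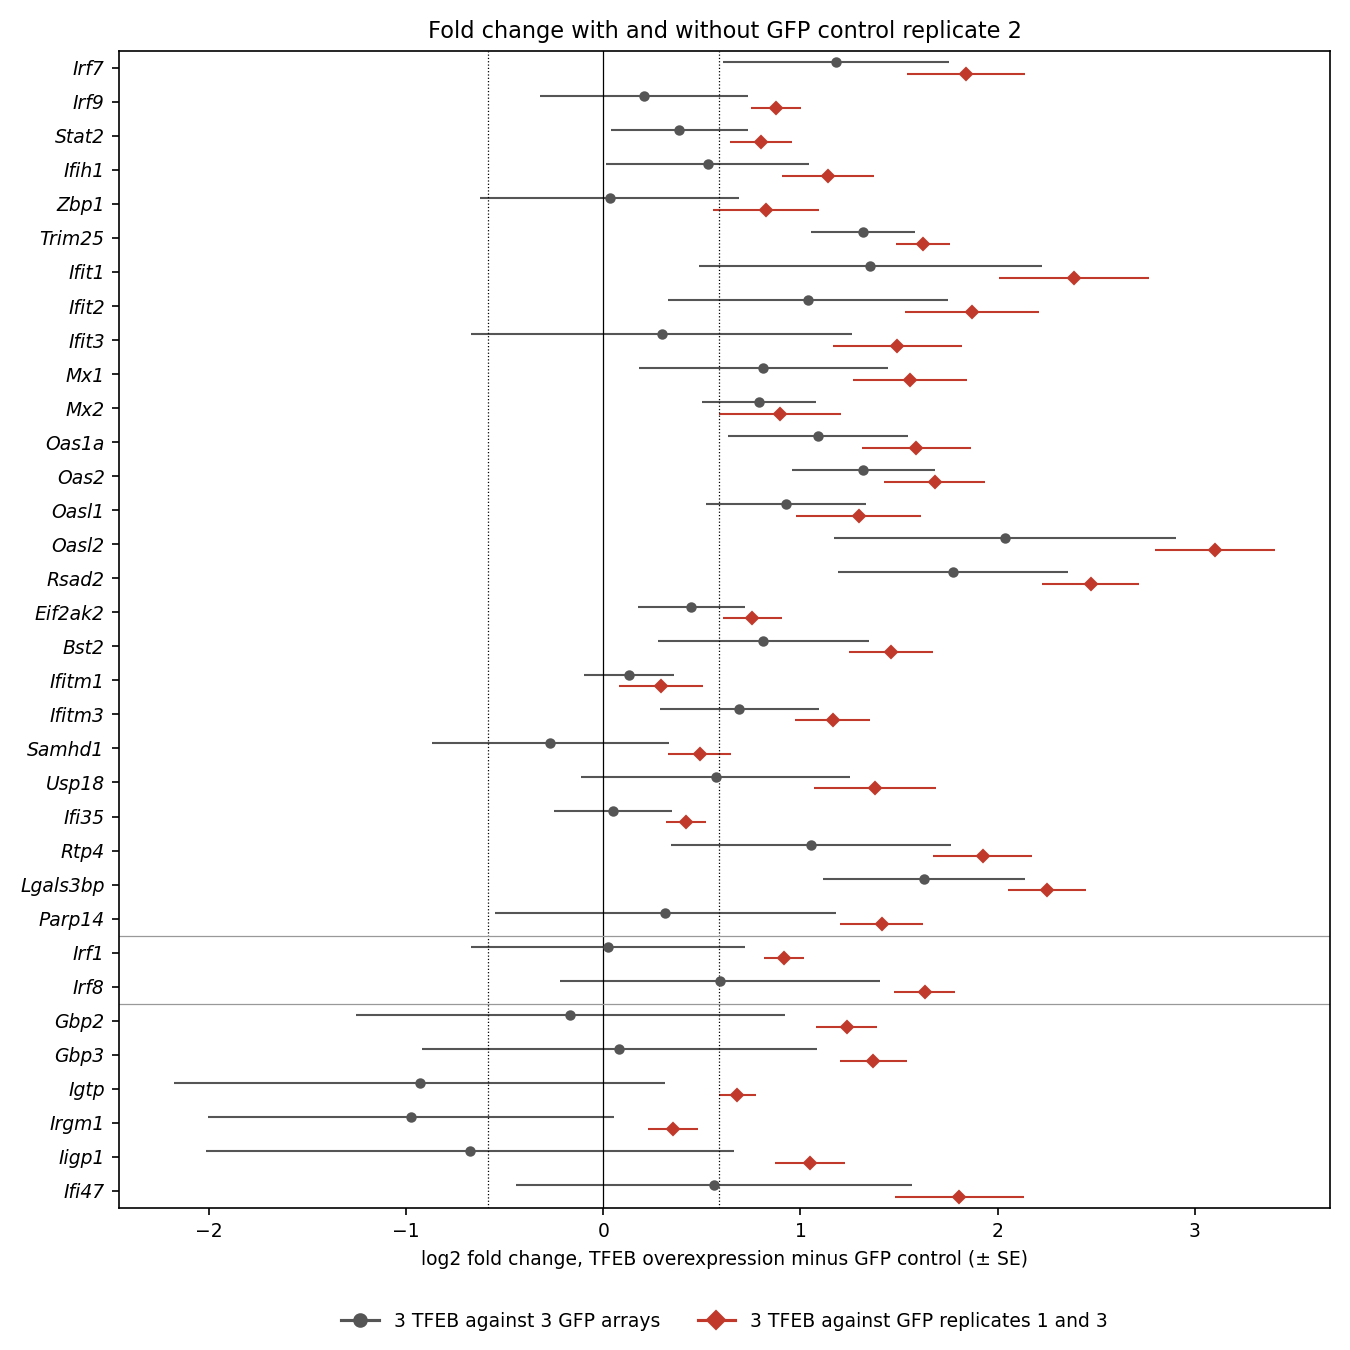
Log2 fold change of each interferon response gene, TFEB overexpression minus GFP control, with all 6 arrays (grey circles) and without GFP control replicate 2 (red diamonds). Bars are the standard error of the limma fit, dotted lines mark a 1.5-fold change, and grey lines part the type I genes, the gamma-branch factors and the GTPases. The grey bars of the GTPases are the widest and cross 0, and all red diamonds lie above 0.

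Type I genes and GTPases differed in how far GFP control replicate 2 exceeded the other controls. The excess had a median log2 value of 1.96 over the 26 type I genes (range 0.32 to 3.59) and of 4.10 over the 6 GTPases (range 3.74 to 5.17), so that no type I gene reached the lowest GTPase, beside a median of -0.05 over all genes. Over 8-fold were 4 of 26 type I genes, Irf8 and all 6 GTPases. Ranked by this excess among the 12393 genes, Iigp1 was at place 5, Igtp at 7, Gbp2 at 13, Irgm1 at 20, Gbp3 at 22 and Ifi47 at 23, while the first type I gene, Ifit3, was at 31. Members held 10 of the first 50 places. The SD among the control arrays had a median of 2.37 over the GTPases and 1.14 over the type I genes, whereas among the TFEB arrays it was 0.19 over the GTPases and 0.46 over the type I genes.

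Set against GFP control replicate 2 alone, the mean of the TFEB arrays was lower at all 6 GTPases, with a median log2 difference of -3.30 (range -4.15 to -1.93), and lower at 19 and higher at 7 of the 26 type I genes, with a median of -0.46 (range -2.09 to 0.71). Set against the other controls it was higher in both classes, by the medians of 1.44 and 1.14 given above. The TFEB mean thus lay between GFP control replicate 2 and the other controls for the GTPases, and near GFP control replicate 2 for many type I genes. A single array carries the upper end of this comparison, and it has no replicate.

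**Figure D3:**
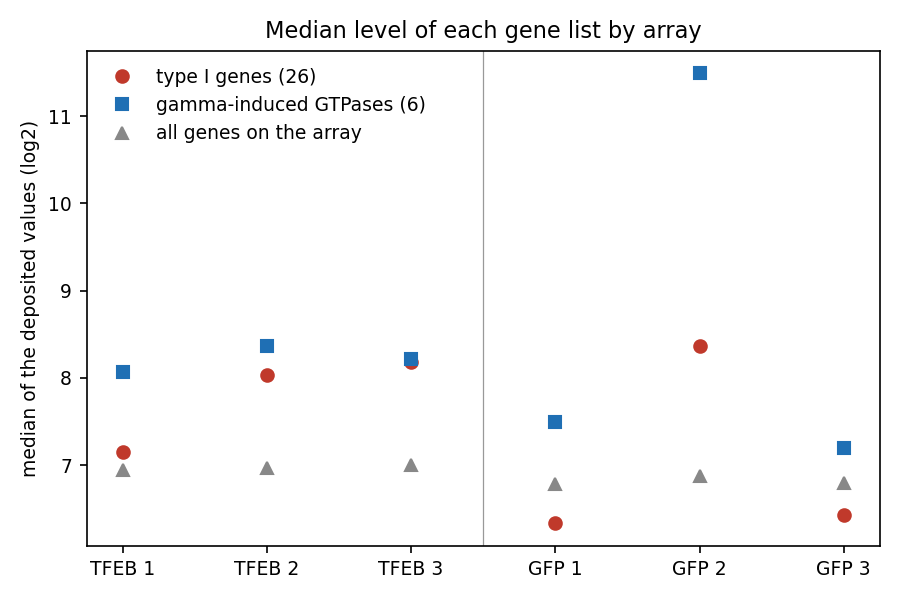
Median deposited log2 value of the 26 type I genes (red circles), the 6 GTPases (blue squares) and all genes (grey triangles) on each array, TFEB arrays on the left and GFP arrays on the right. The type I median was 7.15, 8.04 and 8.19 in the TFEB arrays and 6.33, 8.36 and 6.42 in the GFP arrays, the GTPase median was 8.07, 8.36 and 8.21 in the TFEB arrays and 7.50, 11.49 and 7.19 in the GFP arrays, and the median of all genes moved between 6.78 and 7.00.

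Within the TFEB group, TFEB replicate 1 was the lowest array at all 26 type I genes and at 3 of the 6 GTPases, where 33.9% of all genes were lowest in that array. The type I genes shared this order with other lists, among them the pathway genes described next (47 of 68) and the means of the macrophage, T cell and natural killer cell markers. The mean of TFEB replicates 2 and 3 exceeded TFEB replicate 1 by a median log2 value of 0.74 over the type I genes and 0.19 over the GTPases. Of the 34 members, 9 spread over 2-fold within the TFEB group and 30 did so within the GFP group, in which Trim25, Mx2, Eif2ak2 and Ifitm1 were the ones that did not. This range was not counted over all genes, so these counts describe the members only.

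A further 89 genes of the pathway, grouped by role, were read in the same way, and 68 had a probe set. With all arrays 2 of the 68 were higher (Ifi30 and Tyk2), 1 was lower (Jak2) and 65 did not pass, where 8.62% of all genes were higher and 4.90% lower. Without GFP control replicate 2, 32 were higher and 1 was lower, where 12.3% of all genes were higher and 6.36% lower. The median log2 fold change was 0.22 with all arrays and 0.57 without that array. None of the 5 measured ligand genes passed in either comparison. Ifng, which encodes interferon gamma, had 3.27, 3.27 and 3.20 in the TFEB arrays, against 3.27, 5.96 and 3.47 in the GFP arrays, so that it stood out in GFP control replicate 2 alone and all other arrays, TFEB arrays included, were close together. Ifnb1, which encodes interferon beta, had 4.32, 4.21 and 3.88 in the TFEB arrays, against 4.10, 4.16 and 4.18 in the GFP arrays, with no array apart. Ifna1, named after its values were seen, had 5.05, 5.16 and 5.21 in the TFEB arrays, against 5.64, 5.61 and 5.46 in the GFP arrays, lower in every TFEB array by 0.43 with all arrays (limma adjusted p = 0.00947) and by 0.41 without GFP control replicate 2 (adjusted p = 0.014), under the fold limit, and the alpha genes are close copies of each other that short probes may not tell apart. Values of this size lie low on the scale, and signal above background was not tested per probe set.

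**Figure D4:**
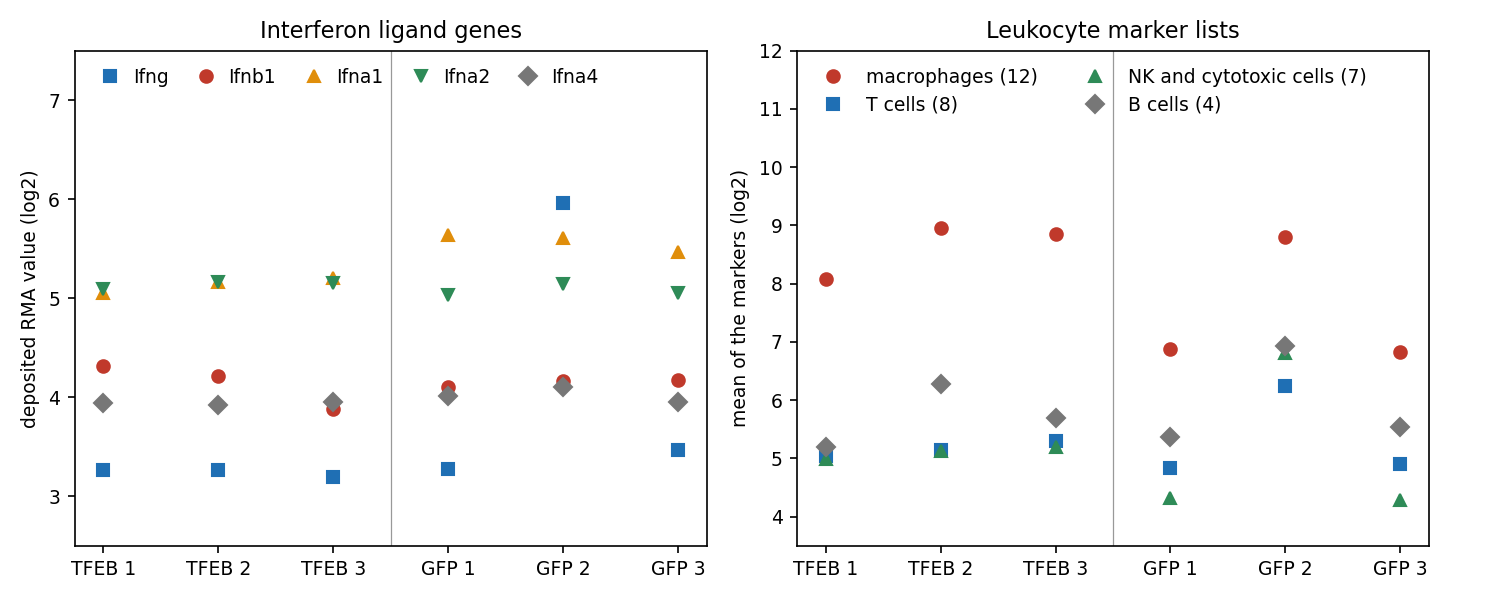
Deposited log2 values of 5 interferon ligand genes (left panel) and mean log2 value of 4 leukocyte marker lists (right panel) on each array, TFEB arrays on the left of each panel and GFP arrays on the right, with the number of markers in brackets. Ifng stands at 5.96 in GFP control replicate 2 and between 3.20 and 3.47 elsewhere, and the lymphocyte lists are highest in that same array, while the macrophage list is also high in all TFEB arrays.

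The receptors and their kinases moved in unlike directions. Of the 8 measured genes, 1 was higher and 1 lower with all arrays (8.62% and 4.90% of all genes). Without GFP control replicate 2, 3 were higher and 1 lower (12.3% and 6.36% of all genes). Jak2, the kinase of the gamma receptor, had 7.84, 7.82 and 7.77 in the TFEB arrays, against 9.22, 9.25 and 9.17 in the GFP arrays, with tight groups that did not overlap, and its log2 value was lower in TFEB muscle, by a difference of -1.40 ± 0.07 (SE, limma adjusted p = 0.000258) with all arrays and -1.39 without GFP control replicate 2 (adjusted p = 0.000139). Tyk2, the kinase of Ifnar1, had 7.50, 7.58 and 7.94 in the TFEB arrays, against 6.72, 7.15 and 6.83 in the GFP arrays, also without overlap, and rose by 0.77 ± 0.16 (adjusted p = 0.0114) with all arrays and by 0.90 without GFP control replicate 2 (adjusted p = 0.00287). Jak1, shared by both receptors, had 9.71, 9.74 and 9.84 in the TFEB arrays, against 10.07, 10.04 and 10.06 in the GFP arrays, lower in every TFEB array but under the fold limit at this brightest of its 3 probe sets (-0.29 with all arrays, adjusted p = 0.0194, and -0.30 without GFP control replicate 2, adjusted p = 0.0273). A dimmer probe set of Jak1 passed as lower, at -0.80 with all arrays (adjusted p = 0.00797) and -0.92 without GFP control replicate 2 (adjusted p = 0.00165), and the other did not pass in either comparison (-0.18 in both). These kinases also serve other cytokine receptors. The receptor chain Ifnar2 changed by 0.75 with all 6 arrays (adjusted p = 0.0881) and 1.09 without GFP control replicate 2 (adjusted p = 0.00163), Ifnar1 by 0.15 with all 6 arrays (adjusted p = 0.445) and 0.31 without GFP control replicate 2 (adjusted p = 0.0414), Ifngr1 by 0.40 with all 6 arrays (adjusted p = 0.114) and 0.54 without GFP control replicate 2 (adjusted p = 0.0267) and Ifngr2 by 0.11 with all 6 arrays (adjusted p = 0.336) and 0.05 without GFP control replicate 2 (adjusted p = 0.661). Of these chains, Ifnar2 alone passed, and only without GFP control replicate 2. A dimmer probe set of Ifnar2 did not pass in either comparison. It changed by 0.08 with all arrays (limma adjusted p = 0.744) and by 0.29 without GFP control replicate 2 (adjusted p = 0.0449), under the fold limit.

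Regulators and sensors outside the 38 genes did not pass with all arrays, at 0 of 10 in each group, and without GFP control replicate 2 they were higher at 2 of 10 regulators and 5 of 10 sensing genes. Of 35 further induced genes, 22 were higher without GFP control replicate 2, where 12.3% of all genes were. With all arrays 1 was higher, where 8.62% of all genes were. That 1 gene, Ifi30, encodes a thiol reductase of lysosomes that interferon gamma induces and that takes part in antigen processing. It had 10.03, 9.97 and 10.42 in the TFEB arrays, against 7.10, 9.63 and 7.19 in the GFP arrays, with all TFEB arrays above all controls and GFP control replicate 2 close below them, a rise of 2.17 ± 0.65 on the log2 scale (SE, 4.49-fold, limma adjusted p = 0.0434) with all arrays and of 2.99 ± 0.14 (7.97-fold, adjusted p = 9.33e-05) without GFP control replicate 2. Cxcl9 and Cxcl10, chemokines that draw activated T cells and are named here after their values were seen, were at places 1 and 3 of all genes by the excess of GFP control replicate 2. Cxcl9 had 7.27, 7.84 and 7.80 in the TFEB arrays, against 4.99, 11.39 and 5.42 in the GFP arrays. Cxcl10 had 6.50, 6.62 and 6.97 in the TFEB arrays, against 4.12, 9.59 and 4.19 in the GFP arrays. Both followed the GTPases, with TFEB arrays well above the other controls and below GFP control replicate 2, and neither passed with all arrays (adjusted p = 0.873 and 0.714), while without GFP control replicate 2 their log2 fold changes were 2.43 and 2.54 (adjusted p = 0.000322 and 0.000134). Other genes of the list did not share this order. Gbp6, at place 2, had 6.97, 6.68 and 6.32 in the TFEB arrays, against 6.54, 11.79 and 6.00 in the GFP arrays. The chemokine gene Cxcl11 had 4.39, 4.26 and 4.39 in the TFEB arrays at its brighter probe set. These lay below all its controls, at 4.65, 5.62 and 4.77. Gbp6 and Cxcl11 passed in neither comparison.

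The marker lists of macrophages, natural killer cells, T cells, B cells and dendritic cells were, like these genes, higher in GFP control replicate 2 than in the other controls. That of neutrophils was not, and it is given further below with the dendritic cell list. The mean log2 value of the 12 macrophage markers was 8.09, 8.95 and 8.85 in the TFEB arrays, against 6.87, 8.81 and 6.82 in the GFP arrays. As for the type I genes, TFEB replicate 1 was the lowest TFEB array and GFP control replicate 2 lay with the TFEB arrays. With all arrays 1 of the 12 markers passed as higher, where 8.62% of all genes did. Without GFP control replicate 2 the count was 11 of 12, where 12.3% of all genes passed as higher. The mean of the 7 natural killer and cytotoxic markers was 5.00, 5.12 and 5.19 in the TFEB arrays, against 4.31, 6.81 and 4.28 in the GFP arrays. In GFP control replicate 2, 6 of the 7 were over 2-fold higher than in the mean of the other controls, where 3.81% of all genes were. For the 8 measured T cell markers the mean was 5.04, 5.14 and 5.31 in the TFEB arrays, against 4.83, 6.25 and 4.90 in the GFP arrays, with 5 of the 8 over 2-fold higher in that array. These lymphocyte lists, like Ifng and the GTPases, were highest in GFP control replicate 2, and the TFEB arrays were nearer to the other controls than to it. The T cell receptor subunits Cd3g and Cd3d were among these 5 markers. Cd3g had 5.00, 5.00 and 5.28 in the TFEB arrays, against 4.26, 7.13 and 4.21 in the GFP arrays. Cd3d had 5.90, 5.87 and 6.24 in the TFEB arrays, against 5.08, 7.52 and 5.30 in the GFP arrays. Cd3e, Cd4 and Cd8a exceeded the other controls in GFP control replicate 2 by less, by 0.56, 0.34 and 0.32 on the log2 scale, and Cd3g and Cd3d were the 2 of the 8 markers that passed as higher without that array. B cell markers (4 measured) averaged 5.20, 6.27 and 5.70 in the TFEB arrays and 5.37, 6.92 and 5.54 in the GFP arrays, with Ighm, the heavy chain of IgM, spreading most. The part of these cells in the values of the interferon response genes was not tested.

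Where a member had several probe sets, their log2 fold changes had 1 sign for 8 of the 10 such members and both signs for Samhd1 and Eif2ak2, with all arrays and without GFP control replicate 2 alike. Of the 48 member probe sets, 4 were higher with all arrays and 0 lower (7.51% and 6.11% of all probe sets), and without GFP control replicate 2 37 were higher and 0 lower (10.7% and 7.93% of all probe sets). Trim25 had 3 probe sets with log2 fold changes of 1.32, 0.97 and 0.37, of which the first and second passed. Rsad2 had 3 with 1.77, 1.57 and 0.61, of which none passed with all arrays and all passed without GFP control replicate 2. Samhd1 had 4 with -0.27, 0.49, -0.04 and -0.31 with all arrays, from the brightest to the dimmest, so that the brightest pair had opposite signs, and the second of them alone passed without GFP control replicate 2 (1.27). Eif2ak2 had 2 that disagreed in sign, 0.45 and -0.27 with all arrays and 0.76 and -0.23 without GFP control replicate 2. Zbp1 and Rtp4 passed without GFP control replicate 2 at the brighter probe set only. Their dimmer ones were then at 0.57 for Zbp1 (limma adjusted p = 0.119) and 0.48 for Rtp4 (adjusted p = 0.0419), both under the fold limit. Of the 48 probe sets, 10 carry a suffix for several transcripts of the same gene, and 3 carry a suffix for probes that may also match other genes (1 each of Trim25, Gbp2 and Samhd1), and the Oas, Ifit, Gbp and Ifitm families hold close copies that short probes may not separate.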

How the data were processed

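Total RNA of 6 mouse muscles was measured on Affymetrix arrays, 1 array per mouse, labelled as biological replicates. The values were used as deposited by the authors, as log2 values of 22690 probe sets. The submitters' processing notes, per the labels, name affy and RMA (background correction, quantile normalization, probe summary), with versions not stated. Quantile normalization partly removes a shift shared by most transcripts, and RMA compresses dim and bright values. Array medians ran from 6.44 to 6.56. Arrays have no read depth, so that the precision rests on how many there are.

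The 64 control probe sets were left out. GEO's platform annotation gave 1 symbol to 20380 of the other 22626 probe sets, several to 691 and none to 1555. Of the single-symbol ones, 20351 matched RefSeq genes of GRCm38.p6, and 0 symbols were updated. For a gene with several probe sets, the one with the highest mean of the 6 arrays was taken. Groups were compared with limma 3.58.1 in R 4.3.3 (lmFit and eBayes, two-sided, Benjamini-Hochberg adjustment over the 22626 probe sets), at adjusted p under 0.05 and at least 1.5-fold, and the fit was tested on simulated data. The methods text for the arrays was not at hand, and the study's own array test may differ. Fold changes are TFEB minus GFP, with ± as the standard error.

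The members and lists (type I genes, GTPases, pathway genes by role, markers of muscle, macrophages, T cells, natural killer cells, B cells, dendritic cells, neutrophils, endothelium and fibroblasts) were chosen with earlier results of these data known. Members that passed, those over 2-fold apart between 2 control arrays and those with the most probe sets are given array by array, and of the pathway up to 6 genes that passed, plus ligands, receptors and kinases fixed by name. Alternatives were scalings, a filter on dim probe sets, the choice of probe set, variance models, a two-tailed t-test (named in the study's general statistics and called the methods' t-test), a replicate block and leaving out arrays. Promoters came from RefSeq, GRCm38.p6, and were read with Python 3.11.15.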

Additional observations from a re-analysis of the deposited data

How the results depend on the processing

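The alternatives other than those that leave out GFP control replicate 2 together with another change were listed with the tests, and the combined ones were chosen after seeing the data. With all 6 arrays, 3 of the 34 interferon response genes passed, all of type I. An intensity trend with a robust fit gave 1 for both counts, array weights gave 15 for both, and the methods' t-test gave 0 for both after Benjamini-Hochberg adjustment (2 at unadjusted p under 0.05 and 1.5-fold). Leaving out 1 array at a time gave 1 to 29 for the members, 1 to 22 for the type I genes and 0 to 5 for the GTPases. The highest counts came without GFP control replicate 2, and the count was 1 without GFP control replicate 1 or 3 or without TFEB replicate 2 or 3. Trim25 passed in all of these fits except the t-test (adjusted p = 0.0635). For the 3 calls among the 68 further pathway genes the counts were 5 with equal medians, 5 with the filter on dim probe sets, 5 with the probe set of smallest p, 17 with array weights, 1 with the t-test and 2 to 33 with 1 array left out. Over the array 3082 probe sets passed (1700 higher, 1382 lower), with 1475 higher and 1789 lower after a shift to equal medians, 1979 higher and 1119 lower after a shift to the muscle markers, and 2429 to 4222 with 1 array left out.

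The deviations of same-numbered arrays had correlations of 0.42, 0.17 and -0.23 for numbers 1, 2 and 3. With 3 arrays per group, of which GFP control replicate 2 stood apart, these values cannot tell whether same-numbered samples share more than a number. With the replicate number as a block 4 members passed, Rsad2 (adjusted p = 0.0476) beside Trim25, Oas2 and Lgals3bp, and 6 pathway genes passed.

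Signs of small fold changes turned with the setting. With equal medians Irf1 was at -0.047, Zbp1 at -0.038 and Ifi35 at -0.020, and after a second quantile normalization Zbp1 was at -0.027. The probe set of smallest p gave -0.27 for Eif2ak2. Array weights gave 0.23 for Samhd1, 0.74 for Gbp2, 0.075 for Igtp and 0.44 for Iigp1. With 1 array left out the log2 fold change ran from -0.47 to 0.92 for Irf1, -0.20 to 0.88 for Irf9, -0.43 to 0.82 for Zbp1, -0.39 to 1.49 for Ifit3, -0.16 to 0.42 for Ifi35, -0.32 to 1.41 for Parp14, -0.083 to 0.32 for Ifitm1, -0.67 to 0.49 for Samhd1, -0.97 to 1.23 for Gbp2, -0.60 to 1.37 for Gbp3, -1.78 to 0.68 for Igtp, -1.64 to 0.36 for Irgm1, -1.69 to 1.05 for Iigp1 and -0.32 to 1.81 for Ifi47.

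Without GFP control replicate 2, 29 members (22 type I genes, 5 GTPases) passed. The t-test gave 9 members, 4 type I genes and 3 GTPases, and a second array left out gave 24 to 31 members, 17 to 24 type I genes and 5 GTPases. No fold change of a member changed sign there under the alternatives run. A second quantile normalization, the intensity trend, the replicate block and the probe set of smallest p were not run there.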

Other observations

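Cell type marker lists outside those described above did not all move alike. The mean log2 value of 4 measured neutrophil markers was 5.43, 5.19 and 5.41 in the TFEB arrays, against 4.48, 4.37 and 4.47 in the GFP arrays. With all arrays 2 of them passed as higher, where 8.62% of all genes did. Here GFP control replicate 2 did not stand apart, unlike for the interferon response genes. S100a8, which encodes a calcium-binding protein of neutrophils and other myeloid cells, had 7.73, 7.36 and 8.30 in the TFEB arrays, against 4.50, 4.62 and 4.51 in the GFP arrays, while Mpo and Elane, defining enzymes of neutrophil granules, did not move with it (Mpo at 3.69, 3.53 and 3.44 in the TFEB arrays and 3.87, 3.67 and 3.60 in the GFP arrays). These genes were named after their values were seen.

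The 5 endothelial markers averaged 8.17, 8.42 and 8.19 in the TFEB arrays, against 7.52, 7.24 and 7.53 in the GFP arrays, with 3 of the 5 higher. The 4 fibroblast markers averaged 10.39, 10.67 and 10.65 in the TFEB arrays, against 9.87, 9.64 and 9.74 in the GFP arrays, with 1 of the 4 higher. The 5 dendritic cell markers averaged 5.40, 5.51 and 5.73 in the TFEB arrays, against 4.82, 5.56 and 5.03 in the GFP arrays, with 1 of the 5 higher. Beside these counts with all arrays, 8.62% of all genes were higher. In the dendritic cell list, as in the macrophage list, TFEB replicate 1 was the lowest TFEB array. GFP control replicate 2 lay within the TFEB range there and the other controls lay below it. Of its 5 markers 1, Itgax, was over 2-fold higher in GFP control replicate 2 than in the mean of the other controls, where 3.81% of all genes were. In the endothelial and fibroblast lists GFP control replicate 2 was the lowest array, whereas in the type I genes, the GTPases and the lymphocyte lists it was at or near the top.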
